A study of Mus musculus with 6 samples.

Results

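The RUNX, MEF2 and hypertrophy transcription factors described here are 10 genes taken by name from a deposited table of 27734 genes: Runx1, Runx2, Runx3, Cbfb, Mef2c, Mef2d, Hdac4, Dlx5, Dlx6 and Foxa2. Each name matched 1 row. Cartilage-forming cells, or chondrocytes, were isolated from rib tissue of mouse embryos at stage E18.5 and collected without culture. One group was a chondrocyte-specific Jab1 knockout (cKO) that carried Jab1 flox/flox and Col2a1-Cre, so that Cre is expressed from the promoter of a cartilage collagen gene. The other was labelled wild type (WT), with no strain, Cre or flox status given. Each group had 3 RNA sequencing libraries, and the labels do not say whether these came from separate embryos, so p-values measure the spread between libraries, which may be technical. Libraries are named by the column number in the table, 0 to 2 in each group. The comparison asks what changes in chondrocytes when Jab1, a subunit of the COP9 signalosome encoded by Cops5, is lost.

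RUNX proteins are transcription factors that bind DNA through a Runt domain and do so strongly only as a pair with CBF-beta, the product of Cbfb. In growing cartilage Runx2 and Runx3 drive proliferating chondrocytes into hypertrophy, the enlarged state that precedes bone formation, and Runx1 is known from earlier cartilage formation and from blood. Mef2c and Mef2d encode MADS-box factors, of which Mef2c promotes hypertrophy. Hdac4 encodes a class IIa histone deacetylase that binds and represses MEF2C and RUNX2. Dlx5 and Dlx6, a linked pair of homeobox genes, and Foxa2, a forkhead factor, also promote hypertrophy in mouse cartilage.

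The mouse RUNX genes share a promoter feature, shown here because these genes differed in the direction of their values. In RefSeq promoter windows of 300 bases (build GRCm38.p6), 250 before and 50 from the gene start on, 1 window of each RUNX gene held the same run of 18 bases, with the RUNX motif AACCACA in it 2 times. The sequences below are read 5′ to 3′ on the gene's strand, each 30 bases long, and capitals mark the shared run.
Runx1, chr16:92826025-92826054, minus strand: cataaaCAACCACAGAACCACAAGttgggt
Runx2, chr17:44814583-44814612, minus strand: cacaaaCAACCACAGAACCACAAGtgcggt
Runx3, chr4:135120503-135120532, plus strand: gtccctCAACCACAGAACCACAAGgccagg
With the start base counted as 0, the run covered bases 26 to 43 in Runx1, 21 to 38 in Runx2 and -136 to -119 in Runx3. Of 32851 windows of all genes, 4 (0.0122%) held the run on either strand, and the remaining one belonged to the gene model Gm16225. The motif AACCACA, searched on both strands with overlaps counted, occurred in 5.27% of all windows and at least 2 times in 0.204%. The window of Runx2 held it 3 times and the windows of Runx1 and Runx3 that carry the run held it 2 times each. Windows were matched for 8 of the 10 members, all except Dlx5 and Dlx6. The second windows of Runx1 and Runx3 did not hold it, nor did those of Cbfb (1 window), Mef2c (3), Mef2d (1), Hdac4 (1) and Foxa2 (3). For the homeodomain core TAATTA (5.29% of all windows), 1 of the 3 Mef2c windows had a match. No member window matched the forkhead core TGTTTAC (3.65% of all windows) or the MEF2 motif (3.19%). These are matches of letters in the windows and say nothing of binding.

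Expression is given in FPKM, which scales fragments by gene length and by the mapped total of the library, so that levels of different genes can be compared. The library columns summed to 574007 to 620054 FPKM in cKO and 571180 to 631534 FPKM in WT libraries. Cops5 measured 17.0, 18.0 and 17.2 FPKM in cKO columns 0, 1 and 2, against 42.3, 39.8 and 40.1 FPKM in WT columns 0, 1 and 2. The groups also differed in sex-linked transcripts. Xist was 37.3, 0.0176 and 0.0244 FPKM in cKO columns 0, 1 and 2 and 63.1 to 65.9 FPKM in WT libraries, and the Y-linked Ddx3y was 7.78, 46.1 and 36.0 FPKM in cKO columns and at most 0.450 FPKM in WT. The column cKO 0 thus carried both signals, and genotype and sex cannot be told apart in any result below. The title of WT column 0 bears another day of the month (30) than the other dated titles (24). Chondrocyte markers were high in every library. The 10 measured summed to 10793, 7037 and 6748 FPKM in cKO and 10203, 11114 and 9590 FPKM in WT columns 0, 1 and 2. The 2 highest, the collagen genes Col9a3 and Col9a2, averaged 1852 ± 411 and 1392 ± 329 FPKM in cKO and 2438 ± 299.6 and 1960 ± 197 FPKM in WT libraries (SD, n = 3).

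Tests used limma on log2(FPKM + 1), two-sided, for genes whose mean over all 6 libraries reached 1 FPKM, with Benjamini-Hochberg adjustment over the 14012 genes tested. The words rose and fell are kept for genes with an adjusted p under 0.05, and fold changes on this scale understate those of low genes. Of the 10 members, 9 were tested and Dlx6 fell under the minimum. Of these 9, 2 rose in cKO, Runx1 and Cbfb, none fell and 7 did not pass. Of all genes tested, 3.48% rose and 2.59% fell, 6.07% in all. Unadjusted limma p-values under 0.05 were reached by 4 members that were higher and 2 that were lower, beside 24.7% of all genes in either direction. Runx3 reached the minimum only through WT, where it was higher, so these counts describe the genes tested and not all members. Groups did not overlap for 5 of the 9, with 4 higher and 1 lower in cKO, where 16.3% of all genes tested were higher without overlap and 15.9% lower, 32.2% in all. The median log2 fold change of the 9 was -0.05, and that of all genes was -0.0039. Of the 10 chondrocyte markers 2 fell, beside 2.59% of all genes, 3 were lower in every cKO library than in any WT library, and the median of the 10 was -0.45 on the log2 scale. The 2 that fell were Comp, a cartilage matrix gene, at 508 ± 36.0 FPKM in cKO and 801 ± 45.5 FPKM in WT (SD, n = 3; limma adjusted p = 0.0239), and Matn3, a matrilin gene, at 240 ± 24.4 FPKM in cKO and 359 ± 31.8 FPKM in WT (limma adjusted p = 0.0446). The part of the lower marker levels in the results below was not tested.

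**Figure D1:**
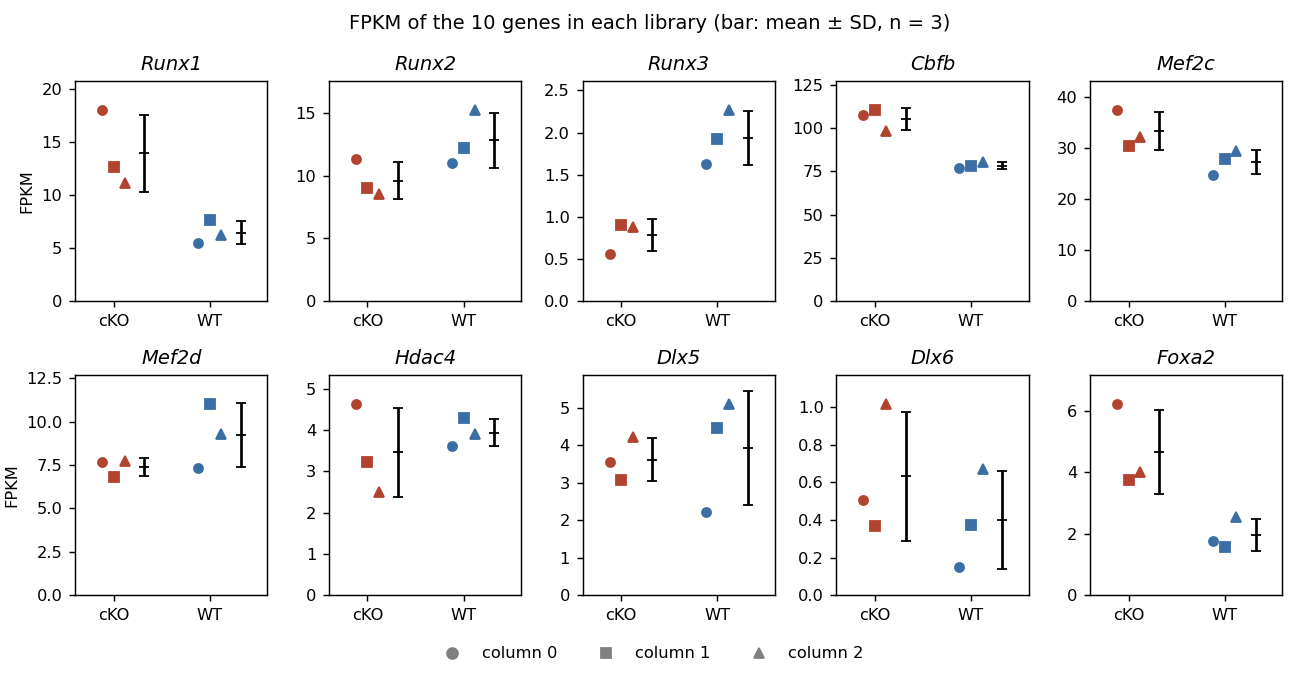
FPKM (vertical axes, linear, starting at 0) of the 10 genes in 3 cKO libraries (red, left) and 3 WT libraries (blue, right); symbols mark the column number and black bars the mean ± SD. Runx1, Cbfb, Mef2c and Foxa2 lie higher in every cKO library than in any WT library, Runx3 lies lower, and the others overlap.

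Cbfb was highest, followed by Mef2c, in both groups. In cKO libraries the order then ran Runx1, Runx2, Mef2d, Foxa2, Dlx5, Hdac4, Runx3 and Dlx6. Among neighbours in this order, the ranges of Runx1 and Runx2, of Foxa2 and Dlx5, of Dlx5 and Hdac4, and of Runx3 and Dlx6 overlapped. In WT libraries the order ran Runx2, Mef2d, Runx1, Hdac4, Dlx5, Foxa2, Runx3 and Dlx6. Among neighbours here, the ranges of Runx2 and Mef2d, of Mef2d and Runx1, of Hdac4 and Dlx5, of Dlx5 and Foxa2, and of Foxa2 and Runx3 overlapped. Genes farther apart in the order can overlap too, as Foxa2 and Hdac4 did in cKO and Dlx5 and Runx3 in WT. Runx1 thus stood at rank 3 by mean in cKO and at rank 5 in WT libraries, and Foxa2 at rank 6 in cKO and at rank 8 in WT libraries.

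Runx1 rose in cKO chondrocytes. It measured 18.1, 12.7 and 11.2 FPKM in cKO columns 0, 1 and 2, against 5.54, 7.63 and 6.24 FPKM in WT columns 0, 1 and 2. Every cKO library was above every WT library, and cKO column 0 was the highest. The means were 14.0 ± 3.63 FPKM in cKO and 6.47 ± 1.06 FPKM in WT (SD, n = 3), a ratio of 2.16 between them. The log2 fold change was 0.99 (SE 0.195, limma adjusted p = 0.0458). The call also depended on the settings described in the last section. It was lost when any library was left out. The limma adjusted p was 0.0544, 0.105 and 0.088 without cKO column 0, 1 or 2, and 0.140, 0.0962 and 0.143 without WT column 0, 1 or 2. The log2 fold change without cKO column 0 was 0.80, and over these settings it ran from 0.80 to 1.12. Runx1 lies on chromosome 16, 92601466 to 92826149 (GRCm38, minus strand), and the values cover the whole gene, so the promoter that carries the shared run and the other promoter cannot be told apart.

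Cbfb, the partner of all RUNX proteins, also rose. It measured 107, 111 and 98.2 FPKM in cKO columns 0, 1 and 2, against 76.7, 77.9 and 80.6 FPKM in WT columns 0, 1 and 2. The groups did not overlap and the values within each were close together. The means were 105 ± 6.45 FPKM in cKO and 78.4 ± 1.98 FPKM in WT (SD, n = 3), a ratio of 1.34, and the log2 value was higher by 0.42 (SE 0.0717, limma adjusted p = 0.0339). Without cKO column 0, 1 or 2 the adjusted p was 0.0605, 0.0912 and 0.0732, and without WT column 0, 1 or 2 it was 0.112, 0.113 and 0.113, while the log2 fold change stayed between 0.39 and 0.47. Cbfb (chromosome 8, 105170674 to 105217989, plus strand) exceeded the summed RUNX level 3.59 to 4.90 times in cKO and 3.39 to 4.22 times in WT libraries. The noncoding RNA gene Gm24629 overlaps Cbfb on the same strand and measured 0 to 96.5 FPKM over all libraries. Its part in the Cbfb values was not tested.

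Runx2, the factor named most often with hypertrophy, did not pass. It measured 11.3, 8.99 and 8.55 FPKM in cKO columns 0, 1 and 2, against 11.02, 12.2 and 15.2 FPKM in WT columns 0, 1 and 2. The groups overlapped, since cKO column 0 was above WT column 0. The means were 9.61 ± 1.48 FPKM in cKO and 12.8 ± 2.18 FPKM in WT (SD, n = 3), and the log2 fold change was -0.38 (SE 0.151, limma adjusted p = 0.197), with a 95% interval of -0.75 to -0.01. Runx2 (chromosome 17, 44495987 to 44814797, minus strand) is overlapped on the opposite strand by Supt3, at 7.24 to 9.91 FPKM over the 6 libraries, and by Runx2os1, at 1.58 to 3.09 FPKM. The ribosomal RNA gene n-R5s27 overlaps it on the same strand and measured 0 to 7.23 FPKM. The library kit keeps strand, per the labels, but whether the authors' counting used it is not given in the sources used here.

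Runx3, which acts with Runx2 in hypertrophy, was the lowest RUNX gene and was lower in each cKO library than in any WT library. It measured 0.563, 0.906 and 0.876 FPKM in cKO columns 0, 1 and 2, against 1.62, 1.92 and 2.27 FPKM in WT columns 0, 1 and 2. The means were 0.782 ± 0.190 FPKM in cKO and 1.94 ± 0.325 FPKM in WT (SD, n = 3). The log2 fold change was -0.72 (SE 0.165) and the gene did not pass (limma adjusted p = 0.0632). Because its cKO mean is under the minimum of 1 FPKM and its WT mean above it, the gene was tested only through the group where it is high, and its p-values are given as a description. It was past the threshold with library weights or among protein-coding genes only (limma adjusted p = 0.0367 and 0.0181), and its p over all alternatives ran from 0.0181 to 0.253.

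The makeup of the RUNX family differed between the groups, while its summed level overlapped. Summed Runx1, Runx2 and Runx3 was 29.9, 22.6 and 20.6 FPKM in cKO columns 0, 1 and 2, and 18.2, 21.7 and 23.8 FPKM in WT columns 0, 1 and 2. Runx1 made up 60.4, 56.2 and 54.2% of that sum in cKO columns 0, 1 and 2, and 30.5, 35.1 and 26.3% in WT columns 0, 1 and 2. Runx2 made up 37.8, 39.8 and 41.5% in cKO and 60.6, 56.1 and 64.2% in WT columns 0, 1 and 2. Runx1 was thus the most abundant RUNX transcript in every cKO library and Runx2 in every WT library. Runx3 held 1.88 to 4.26% of the sum in cKO and 8.83 to 9.56% in WT libraries. The Runx2 share differed by -20.6 percentage points between the cKO and WT means, and by -22.7 to -18.7 points when any library was left out. As a sum over genes chosen with results known, this share was given no test.

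**Figure D2:**
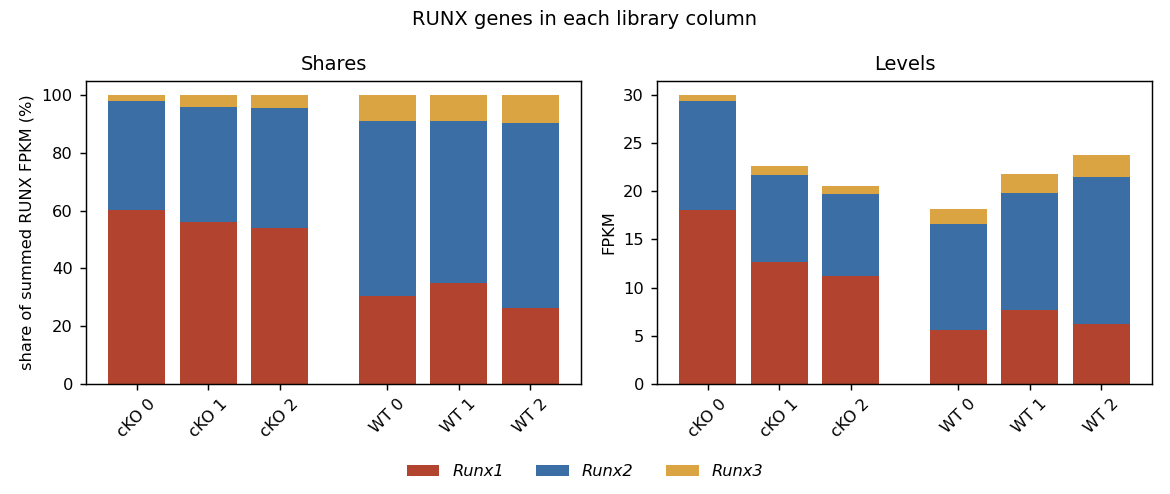
Share of Runx1, Runx2 and Runx3 in their summed FPKM (left, %) and their stacked FPKM (right) in each library column, cKO left of WT. Runx1 holds 54.2 to 60.4% in cKO and 26.3 to 35.1% in WT libraries, while the stacked levels overlap.

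Markers of blood cells, which can carry RUNX transcripts, were also measured. In bulk samples, fewer cells of a type and less RNA per cell cannot be told apart. Of 6 tested erythroid and megakaryocyte genes 5 fell, beside 2.59% of all genes falling, and of these Alas2 reached the minimum only through WT. The 7 measured summed to 16.1, 54.2 and 27.4 FPKM in cKO and 199.8, 224 and 210 FPKM in WT columns 0, 1 and 2. The highest, the globin genes Hbb-bs and Hba-a1, averaged 20.0 ± 13.6 and 3.85 ± 2.11 FPKM in cKO and 143 ± 12.8 and 29.4 ± 1.06 FPKM in WT (SD, n = 3), and globin copies can share reads. Of 7 tested myeloid and leukocyte genes 1 fell, again beside 2.59% of all genes. This was Cd52, which also reached the minimum only through WT (0.409 ± 0.432 FPKM in cKO and 5.14 ± 2.98 FPKM in WT). The 8 measured summed to 11.1 to 49.3 FPKM in cKO and 27.6 to 61.4 FPKM in WT libraries. The highest were Tyrobp, an adaptor of myeloid receptors, at 7.86 ± 5.87 FPKM in cKO and 14.6 ± 8.49 FPKM in WT, and the lysosomal gene Cd68, at 9.99 ± 6.70 FPKM in cKO and 6.53 ± 2.70 FPKM in WT. The pan-leukocyte gene Ptprc, named after its values were seen, was 0.227 to 0.626 FPKM in cKO and 1.37 to 2.76 FPKM in WT libraries. The part of blood cells in the Runx1 and Runx3 values was not tested.

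Mef2c, the MEF2 gene that promotes hypertrophy, was the second most abundant member. It measured 37.5, 30.3 and 32.1 FPKM in cKO columns 0, 1 and 2, against 24.8, 27.8 and 29.4 FPKM in WT columns 0, 1 and 2. The groups did not overlap, but cKO column 1 and WT column 2 lay within 1 FPKM of each other. The means were 33.3 ± 3.74 FPKM in cKO and 27.3 ± 2.35 FPKM in WT (SD, n = 3), and the log2 fold change of 0.27 (SE 0.107) did not pass (limma adjusted p = 0.190). The 95% interval was 0.01 to 0.54.

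Mef2d measured 7.66, 6.79 and 7.71 FPKM in cKO columns 0, 1 and 2, against 7.34, 11.05 and 9.29 FPKM in WT columns 0, 1 and 2. The groups overlapped at WT column 0. The log2 fold change was -0.27 (SE 0.145, limma adjusted p = 0.312), and it was -0.41 without WT column 0 and -0.14 without WT column 1. The antisense gene 1700113A16Rik overlaps Mef2d and measured 1.89 to 2.67 FPKM. Mef2c held 80.6 to 83.0% of the summed Mef2c and Mef2d level in cKO and 71.6 to 77.1% in WT libraries, without overlap. This sum covers the 2 members only and is not the whole MEF2 family. Mef2a, named after its values were seen, was more abundant than Mef2d and is not in it. Mef2a averaged 19.2 ± 4.09 FPKM in cKO and 17.1 ± 3.89 FPKM in WT (SD, n = 3; limma adjusted p = 0.664), and its groups overlapped.

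Hdac4, the repressor in the set, did not pass and its cKO libraries disagreed. It measured 4.65, 3.23 and 2.51 FPKM in cKO columns 0, 1 and 2, against 3.63, 4.29 and 3.92 FPKM in WT columns 0, 1 and 2. The cKO values lay on both sides of the WT range. The log2 fold change was -0.17 (SE 0.186, limma adjusted p = 0.599), with a 95% interval of -0.63 to 0.28. It was -0.36 without cKO column 0 and -0.014 without cKO column 2. Summed Mef2c and Mef2d exceeded Hdac4 9.71, 11.5 and 15.9 times in cKO and 8.84, 9.07 and 9.87 times in WT columns 0, 1 and 2, so that cKO column 0 lay within the WT range and the other cKO libraries above it.

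Muscle fibres also express MEF2 genes, so muscle markers were measured too. Of 6 tested muscle genes 1 fell, the troponin gene Tnnt3, beside 2.59% of all genes falling. The 9 measured summed to 53.5 to 80.2 FPKM in cKO and 149.9 to 175 FPKM in WT libraries. Tnnt3 made up most of these sums, at 51.8 ± 11.03 FPKM in cKO and 141 ± 19.9 FPKM in WT (SD, n = 3). The next highest, the actin gene Acta1, averaged 3.63 ± 2.50 FPKM in cKO and 6.86 ± 3.98 FPKM in WT. Apart from Tnnt3, the cKO and WT values of every muscle gene measured overlapped. Myod1, named after its values were seen, had the higher mean in cKO, at 0.237 ± 0.224 FPKM against 0.0810 ± 0.0251 FPKM in WT. The part of muscle cells in the MEF2 values was not tested.

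The cKO and WT values of Dlx5 and of Dlx6 overlapped. Dlx5 measured 3.56, 3.06 and 4.21 FPKM in cKO columns 0, 1 and 2, against 2.22, 4.47 and 5.09 FPKM in WT columns 0, 1 and 2. The WT libraries enclosed all cKO values, and the log2 fold change was -0.05 (SE 0.261, limma adjusted p = 0.927), with a 95% interval of -0.69 to 0.59. Single libraries set its sign and size: it was -0.33 without WT column 0, 0.05 without WT column 1, 0.13 without WT column 2, 0.04 without cKO column 1 and -0.14 without cKO column 2. Dlx6 measured 0.508, 0.367 and 1.02 FPKM in cKO columns 0, 1 and 2, against 0.148, 0.375 and 0.669 FPKM in WT columns 0, 1 and 2. It had means of 0.631 ± 0.343 FPKM in cKO and 0.397 ± 0.261 FPKM in WT (SD, n = 3) and was not tested at this level. In both genes and both groups column 2 was the highest of the 3. The pair lies on chromosome 6, Dlx5 at 6877805 to 6882085 on the minus strand and Dlx6 at 6863334 to 6868568 on the plus strand. The antisense gene Dlx6os1 overlaps Dlx6 and measured 0.109 to 0.352 FPKM, where Dlx6 itself ran from 0.148 to 1.02 FPKM.

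Foxa2 was more than doubled in its mean but just missed the threshold. It measured 6.23, 3.75 and 3.99 FPKM in cKO columns 0, 1 and 2, against 1.74, 1.56 and 2.54 FPKM in WT columns 0, 1 and 2. All cKO libraries were above all WT libraries, and column 0 was again the highest. The means were 4.66 ± 1.37 FPKM in cKO and 1.95 ± 0.525 FPKM in WT (SD, n = 3), a ratio of 2.39. The log2 fold change was 0.93 (SE 0.213, limma adjusted p = 0.0632), with a 95% interval of 0.40 to 1.45. It passed among protein-coding genes only (limma adjusted p = 0.0226), and its p over all alternatives ran from 0.0226 to 0.241. FOXA2 is also a factor of endodermal epithelium, whose 5 measured markers summed to 1.27 to 2.59 FPKM in cKO and 0.866 to 1.29 FPKM in WT libraries. The highest of these was Epcam, an epithelial adhesion gene, at 1.83 ± 0.699 FPKM in cKO and 0.809 ± 0.187 FPKM in WT (limma adjusted p = 0.182). Epcam made up most of these sums. It was higher in every cKO library than in any WT library, as Foxa2 was, and reached the minimum of 1 FPKM only through cKO. Within cKO, Epcam measured 1.03, 2.28 and 2.195 FPKM in columns 0, 1 and 2, and was lowest in column 0, where Foxa2 was highest. The groups overlapped for the other markers measured, Krt8, Cdh1, Sftpc and Alb. Cdh1, named after its values were seen, had the lower mean in cKO, at 0.0239 ± 0.0135 FPKM against 0.0552 ± 0.0305 FPKM in WT. Epcam was followed in level by Krt8 at 0.122 ± 0.0685 FPKM in cKO and 0.137 ± 0.0451 FPKM in WT. The lung gene Sftpc was listed at 0 in all libraries except cKO column 0 (0.0732 FPKM), and the liver gene Alb was at most 0.111 FPKM in cKO and 0.114 FPKM in WT libraries. The part of epithelial cells in the Foxa2 values was not tested.

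**Figure D3:**
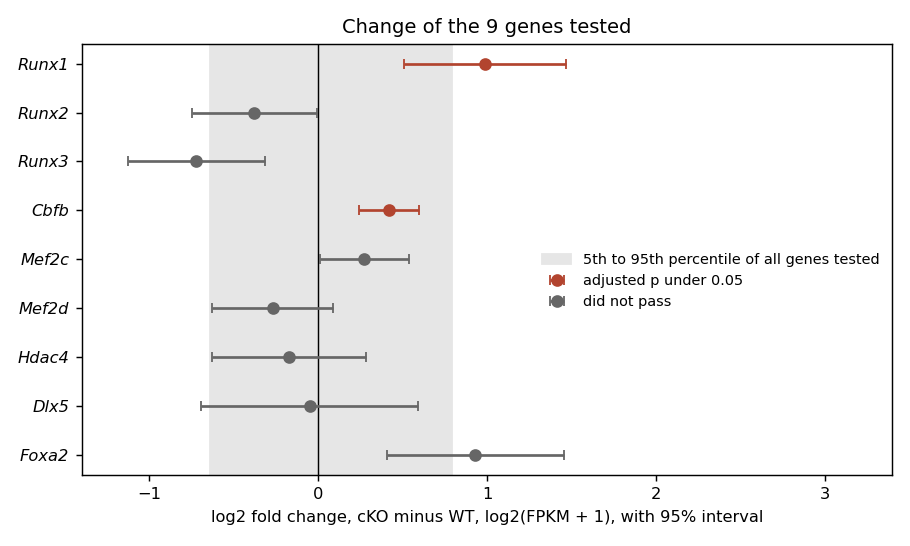
Log2 fold changes (horizontal axis, cKO minus WT on log2(FPKM + 1), points) with 95% intervals from limma for the 9 genes tested, with the 5th to 95th percentile of all genes tested as a grey band. Runx1 and Foxa2 lie above the band and Runx3 below it, and the 2 genes that passed, Runx1 (0.99) and Cbfb (0.42), are in red.

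The 3 cKO libraries differed among themselves. Relative to the WT mean on log2(FPKM + 1), cKO columns 0, 1 and 2 were at 1.36, 0.88 and 0.71 for Runx1 and at 1.31, 0.70 and 0.77 for Foxa2. They were at -0.90, -0.62 and -0.64 for Runx3 and at 0.45, 0.49 and 0.32 for Cbfb. For Mef2c they were at 0.45, 0.15 and 0.23. Column 0, the library with both sex signals, thus lay farthest from WT for Runx1, Runx3, Foxa2 and Mef2c, but nearest to WT for Runx2, at -0.16 against -0.46 and -0.52 in columns 1 and 2. Its chondrocyte marker sum lay within the WT range, and those of columns 1 and 2 lay below it. Its endothelial marker sum lay below the WT range, and those of columns 1 and 2 lay above it. The part of these marker differences in the values was not tested.

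By the root mean square difference of log2(FPKM + 1), centred on the mean of the 6 libraries, the tested genes most like Runx1 were Fhl2 (0.0672), Scube1 (0.0941) and BC100451 (0.1002). Fhl2 averaged 18.2 ± 4.34 FPKM in cKO and 8.65 ± 0.746 FPKM in WT (SD, n = 3). The genes most like Cbfb were Gpsm2 (0.0364), Trib2 (0.0390) and Tmem183a (0.0426). Those most like Runx2 were Mcoln2 (0.0386), the sense intronic gene C230066G23Rik (0.0496) and Sp2 (0.0528). With 6 libraries and 14012 genes these are descriptions of pattern alone.

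Among 20 listed partners and regulators of RUNX proteins, 18 were tested, 3 rose, none fell and 15 did not pass, beside 3.48% of all genes rising. Twist1, whose product binds RUNX2 and blocks its activity, averaged 7.39 ± 0.614 FPKM in cKO and 4.16 ± 0.352 FPKM in WT (SD, n = 3; limma adjusted p = 0.0185). Tle1, a Groucho corepressor that RUNX proteins recruit, averaged 43.1 ± 3.18 FPKM in cKO and 31.3 ± 0.722 FPKM in WT (limma adjusted p = 0.0310). Ets1, a factor that binds DNA together with RUNX1, averaged 43.5 ± 0.481 FPKM in cKO and 27.3 ± 5.18 FPKM in WT (limma adjusted p = 0.0458). The next in order were the ubiquitin ligase gene Smurf2, at 24.7 ± 1.40 FPKM in cKO and 19.6 ± 0.941 FPKM in WT (limma adjusted p = 0.0605), and Tle3, another Groucho gene, at 2.97 ± 0.126 FPKM in cKO and 4.02 ± 0.496 FPKM in WT (limma adjusted p = 0.119). Stub1, a chaperone-linked ubiquitin ligase, averaged 67.6 ± 4.95 FPKM in cKO and 72.6 ± 4.71 FPKM in WT, and Wwtr1, which encodes TAZ, 57.2 ± 5.76 FPKM in cKO and 54.5 ± 2.21 FPKM in WT. The list median was 0.15 on the log2 scale. The number that rose was 0 without cKO column 1 or 2 or WT column 0 or 2, 1 without WT column 1 and 2 without cKO column 0.

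In the MEF2 and HDAC pathway none of 15 tested genes (of 16 listed) passed in limma, and those with an unadjusted p under 0.05 were 0 higher and 3 lower, beside 24.7% of all genes in either direction. One of these was Camk4, which encodes a calcium-dependent kinase, at 4.57 ± 0.634 FPKM in cKO and 6.46 ± 0.660 FPKM in WT (SD, n = 3; limma adjusted p = 0.0977). The most abundant were Pth1r, the receptor of the signal that holds back hypertrophy, at 88.4 ± 8.20 FPKM in cKO and 89.9 ± 4.99 FPKM in WT, and the phosphatase gene Ppp2ca, at 45.9 ± 3.23 FPKM in cKO and 44.8 ± 3.10 FPKM in WT. Pthlh, the gene of that signal, was named after its values were seen. It averaged 1.75 ± 0.373 FPKM in cKO and 3.09 ± 0.717 FPKM in WT (limma adjusted p = 0.132), without overlap. Of the 15 tested, 3 were lower and 1 higher without overlap, beside 15.9% and 16.3% of all genes. The list median was 0.03.

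Of 15 listed RUNX and MEF2 target genes of hypertrophic cartilage and bone, 14 were tested, 1 rose, none fell and 13 did not pass, beside 3.48% of all genes rising and 2.59% falling. Enpp1, which makes the mineralization inhibitor pyrophosphate, averaged 84.7 ± 4.96 FPKM in cKO and 47.6 ± 3.24 FPKM in WT (SD, n = 3; limma adjusted p = 0.00873), and it passed when any library was left out. Ihh, the hedgehog ligand of prehypertrophic cells, averaged 8.08 ± 0.990 FPKM in cKO and 11.5 ± 1.70 FPKM in WT (limma adjusted p = 0.103). Panx3, a channel of hypertrophic cells and osteoblasts, averaged 41.4 ± 17.0 FPKM in cKO and 79.8 ± 15.8 FPKM in WT (limma adjusted p = 0.158). Spp1, which encodes osteopontin, was 909, 1872 and 2238 FPKM in cKO and 486, 1001 and 751 FPKM in WT columns 0, 1 and 2 (limma adjusted p = 0.176). Col10a1, the collagen of hypertrophic cartilage, was 195, 645 and 601 FPKM in cKO and 374, 489 and 486 FPKM in WT columns 0, 1 and 2. Column 0 was thus the lowest in both groups for Spp1 and Col10a1. The list median was -0.15. Osteoblast and perichondrium markers, a list that shares some of these genes, summed to 327, 624 and 502 FPKM in cKO and 290.2, 584 and 709 FPKM in WT columns 0, 1 and 2, with none of 7 called in limma and 0 at an unadjusted p under 0.05. The most abundant of them, Col1a2 and Postn, averaged 206 ± 20.0 and 135 ± 113 FPKM in cKO and 245 ± 88.9 and 63.7 ± 17.6 FPKM in WT. Endothelial markers were low and summed to 1.37, 8.60 and 9.97 FPKM in cKO and 2.49, 4.34 and 4.11 FPKM in WT columns 0, 1 and 2. Pecam1 averaged 2.41 ± 1.67 FPKM in cKO and 1.51 ± 0.337 FPKM in WT, and Emcn 1.51 ± 1.10 FPKM in cKO and 0.7504 ± 0.299 FPKM in WT.

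Among 18 listed other DLX, FOX and hypertrophy factors, 17 were measured and 12 tested, of which 1 rose, none fell and 11 did not pass, beside 3.48% of all genes rising. Foxa3, a forkhead relative that acts with Foxa2 in mouse cartilage, measured 18.9, 17.8 and 18.47 FPKM in cKO and 14.7, 13.1 and 12.9 FPKM in WT columns 0, 1 and 2. The means were 18.4 ± 0.568 FPKM in cKO and 13.6 ± 0.965 FPKM in WT (SD, n = 3), a ratio of 1.36 (limma adjusted p = 0.0351). Foxa3 was thus more abundant than Foxa2 in every library. It no longer passed when any 1 of the 6 libraries was left out, with a log2 fold change of 0.38 to 0.47 in place of 0.41. Epas1, which encodes HIF-2 alpha, averaged 2.92 ± 0.996 FPKM in cKO and 1.20 ± 0.178 FPKM in WT (limma adjusted p = 0.0825). The stress and bone factor Atf4 averaged 353 ± 48.9 FPKM in cKO and 274 ± 14.1 FPKM in WT (limma adjusted p = 0.147), and Xbp1, of the unfolded protein response, 105 ± 6.92 FPKM in cKO and 103 ± 5.84 FPKM in WT (limma adjusted p = 0.859). The other DLX genes, Dlx1 to Dlx4, were each under 1 FPKM in all libraries and were not tested. Among them Dlx2, named after its values were seen, was 0.516, 0.411 and 0.390 FPKM in cKO columns 0, 1 and 2, against 0.0916, 0.126 and 0.0573 FPKM in WT columns 0, 1 and 2, without overlap. The list median was 0.04.

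**Figure D4:**
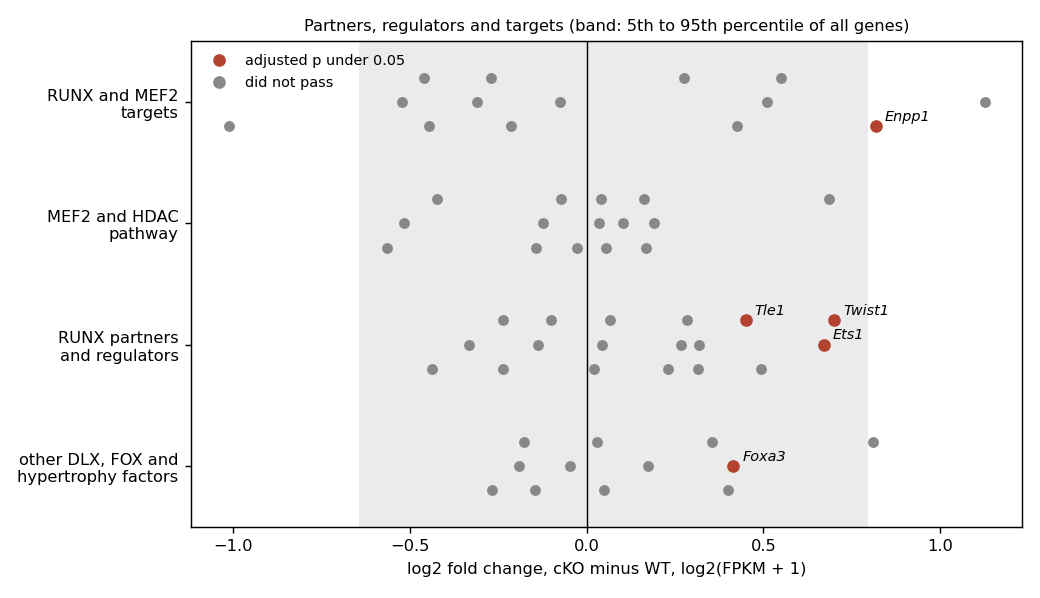
Log2 fold changes (horizontal axis, cKO minus WT) of the tested members of the 4 lists, each point 1 gene, vertical offsets for legibility only, with the 5th to 95th percentile of all genes as a grey band. The 5 genes that passed, in red, are all on the positive side, and most other genes lie within the band.

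**Figure D5:**
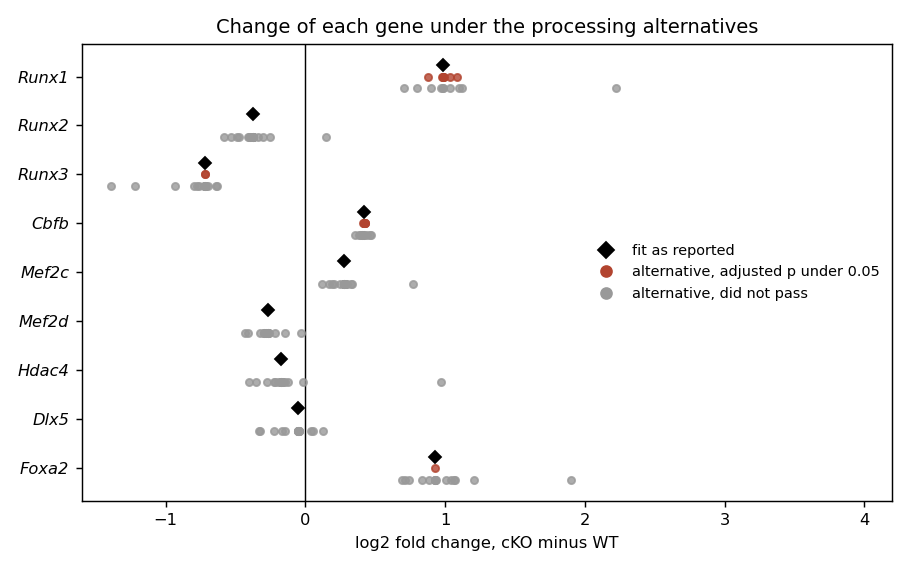
Log2 fold change of each tested gene (horizontal axis, cKO minus WT) as reported (black diamonds) and under up to 18 processing alternatives (red where the adjusted p was under 0.05, grey otherwise). Runx1, Cbfb, Mef2c and Foxa2 stay positive and Runx3 and Mef2d negative throughout, while Runx2, Hdac4 and Dlx5 cross 0 in at least 1 setting.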

How the data were processed

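Deposited values were FPKM as made by the authors. Per the submitters' processing notes, STAR, Cufflinks, Cuffdiff and the build mm10 were used. The labels' protocols name a stranded total RNA kit with ribosomal RNA depletion, single-end reads and CLC Genomics Workbench. Versions, settings and any scaling between libraries are not given in the sources used here. Columns were matched by name. The third column of each group is numbered 2 and the third description 3, so those columns were matched to their group only. Read counts were not analysed here and intervals for counting error are left out. For small RNA genes at low levels, the commonest ratio of WT column 0 to cKO columns 0, 1 and 2 was 0.987, 1.44 and 1.136. To WT columns 1 and 2 it was 1.159 and 1.193. Only a minority of these genes shared the ratio: 34 of 183, 31 of 197 and 41 of 184 for cKO columns 0, 1 and 2. For WT columns 1 and 2 it was 35 of 203 and 42 of 201. The ratios are no more than a hint at relative depth.

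Of the identifiers, 99.4% matched GENCODE M21, which gave coordinates. Limma 3.58.1 in R 4.3.3 (lmFit, eBayes with trend=TRUE, pseudocount 1, minimum mean 1 FPKM) fitted 1 coefficient for genotype over all genes, and the fit was tested on simulated data. An exact permutation test of 3 against 3 has a smallest p of 0.1, so none is given. Members and lists were chosen with earlier results of these data known. Text names all 10 members, every list gene that passed, the 2 with the smallest p among the rest and the 2 with the highest mean, and the 2 highest genes of each marker list, apart from 1 list gene that is not reported here. Markers Col2a1, Col9a1 and Nkx2-1 and the factor Foxa1 were not analysed here. In addition, 18 alternatives were run: a pseudocount of 0.1 or 0.5, a minimum mean of 5 FPKM or none, scaling by median of ratios or quantiles, a robust prior, library weights, each library left out, a replicate block, protein-coding genes only, the summed Y-linked level as a covariate, and, chosen after seeing the data, cKO column 0 and WT column 0 left out together.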

Additional observations from a re-analysis of the deposited data

How the results depend on the processing

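The number of members that rose, 2 in the fit as reported, was 1 without the filter on low values (Cbfb) and 1 with quantile normalization (Runx1). Runx1 had a limma adjusted p of 0.0769 without the filter, and Cbfb one of 0.0645 with quantile normalization. The number that rose was 3 among protein-coding genes alone, with Foxa2 added. It was 0 with the summed Y-linked level as covariate, 0 without cKO column 0 and WT column 0 together, and 0 to 0 when any single library was left out. The number that fell, 0 as reported, was 1 (Runx3) under library weights and 1 (Runx3) among protein-coding genes alone. Runx3 reached the minimum only through WT, so these counts are a description, and without the filter its limma adjusted p was 0.0881. The number of all genes changed, 850, was 461 without the filter, 1488 under library weights, 1373 among protein-coding genes alone, 26 with the Y-linked covariate, 116 without both columns 0, and 174 to 666 when single libraries were left out. Of RUNX partners and regulators, 3 rose as reported, 0 with the Y-linked covariate, 0 without both columns 0 and 0 to 2 with single libraries left out. Of other hypertrophy factors, 1 rose as reported, 2 with protein-coding genes only, 0 with the covariate, 0 without both columns 0 and 0 to 0 with single libraries left out. Of RUNX and MEF2 targets, 1 rose as reported, and 0 with the covariate or without both columns 0. Of the MEF2 and HDAC pathway, 1 fell under library weights and 1 among protein-coding genes alone. The cause of these shifts was not tested, except that fits with fewer libraries have less information.

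No pairing by column number was seen across all genes. Deviations of same-numbered libraries from their group means correlated at -0.03, -0.04 and -0.02, and no library correlated best with its own number. A pairing that shows in a part of the genes only was not tested. With the replicate block, all genes changed numbered 60, all among the 850, and members, RUNX partners, other factors and targets that rose numbered 0, 0, 0 and 0.

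Signs changed in some settings, in no case with an adjusted p under 0.05. Under the Y-linked covariate, log2 fold changes were 0.15 for Runx2, 0.97 for Hdac4, 0.42 for Pth1r, 0.31 for Stub1, -1.15 for Spp1, -0.34 for Ppp2ca, -0.22 for Wwtr1 and -0.083 for Xbp1. That covariate separated the groups (3.96 to 6.39 in cKO and 0.04 to 0.71 in WT libraries). Quantile normalization gave -0.0126 for Ppp2ca and -0.0562 for Xbp1. Col10a1 was at 0.23 with library weights and 0.35 without both columns 0. With single libraries left out the log2 fold change ran from -0.38 to 0.48 for Col10a1, -0.33 to 0.13 for Dlx5, -0.0224 to 0.0928 for Ppp2ca, -0.101 to 0.0223 for Pth1r, -0.0146 to 0.112 for Wwtr1 and -0.0240 to 0.0726 for Xbp1. Read counts were not analysed here, so depth sets an unknown limit for members under 1 FPKM (Dlx6, and Runx3 in cKO).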
